A study of Homo sapiens with 18 samples.

Results

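Foregut cultures that received CHIR99021 with BMP4 between days 6 and 9 were compared with untreated foregut cultures of day 9, and neither group had been given retinoic acid. The comparison took 6 of the 18 RNA-seq libraries of the study, 3 per group, chosen by their labels and not by any measured value. All libraries came from wild-type H1 cells, an established human embryonic stem cell line, differentiated to foregut endoderm, so the study rests on 1 cell line. CHIR99021, an inhibitor of the kinase GSK3, was given at 2 µM together with recombinant BMP4 at 50 ng/mL for 72 h, signals that the submitters used to mimic the induction of respiratory fate. The day 9 untreated cultures received neither agent. A second pair of day 9 groups is set beside this comparison: cultures that had received 2 µM all-trans retinoic acid (RA) for 24 h from day 5 to day 6, with or without the same CHIR99021 and BMP4 afterwards. Untreated and RA-treated cultures of day 6 complete the 18 libraries. The comparison describes how cultures given both agents differed from untreated ones when neither had first been exposed to RA. CHIR99021 and BMP4 were only given together, so their effects cannot be told apart.

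In canonical Wnt signalling, ligand binding to Frizzled and LRP receptors stops GSK3 from marking β-catenin for destruction, and β-catenin then works with LEF and TCF factors on target genes. Many of those targets (AXIN2, NKD1, NOTUM, RNF43, ZNRF3, DKK1) restrain the pathway again. BMP4 acts through receptor kinases and SMAD proteins and induces ID, MSX and DLX genes along with its own inhibitors. In the embryo both signals reach the ventral foregut, where the lung and trachea arise from NKX2-1-positive cells, while dorsal foregut that keeps SOX2 forms the oesophagus, and the pharynx in front of them is marked by PAX1.

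Counts in genes (in M, 1e+06) were 25.37 M, 5.89 M and 5.79 M in the untreated libraries and 13.68 M, 8.71 M and 18.73 M in the CHIR99021 and BMP4 libraries. Levels are given as counts per M counts (CPM), always in the order replicate 1, 2 and 3. Nothing in the labels says that replicates came from separate cultures, so p-values measure only the spread between these libraries. Of 15531 genes tested with edgeR's quasi-likelihood test, 6654 (42.8%) passed an adjusted p of 0.05, the rule behind every statement that a gene rose, fell or changed. Of these, 3268 were higher after CHIR99021 and BMP4 (21% of the genes tested) and 3386 lower (21.8%). Every list count below is to be read beside these shares. At 2-fold or more the counts were 896 higher (5.77%) and 965 lower (6.21%). Higher genes made up 49.1% of those called, and 79.7% when the deposited TPM values were tested instead, on which the median log2 change over all genes was 0.225 against 0.00308 on counts. In the 6 libraries the first principal component, with 77% of the variance, separated the groups.

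A feature of the libraries touches all of these results. The 3 untreated libraries of day 9 and untreated replicate 2 of day 6 were each at least 10-fold apart from all 12 treated libraries of the series in 63 genes. Of these, 57 (90.5%) were pseudogenes, against 3.64% of the 13722 genes with a mean of at least 2 CPM. Among the 712 pseudogenes tested, 28.5% differed over 4-fold in this comparison and 4.35% in the comparison after RA. For the 11946 protein-coding genes with no pseudogene named after them those shares were 3.42% and 9.9%. All untreated day 9 libraries lay on one side of this difference and all CHIR99021 and BMP4 libraries on the other, so it cannot be told apart from the treatment here. Genes with near-identical copies, such as POTEE and PGAM4, the ribosomal protein genes and KRT8 and KRT18, are therefore uncertain and are not described as changed. MSX2, OTX2, CDON, IRX1, MKI67, ATF4, MYCL, BUB1 and BMP6 also have pseudogenes named after them. When only protein-coding genes without a named pseudogene were fitted, an alternative added after the data were seen, all 144 named genes that were left in the table kept their call. The counts of these genes were the same in that fit, so it cannot show whether the pseudogene difference touches them. With an index of the pseudogene difference as a covariate, whose slope rests on the other 2 untreated libraries of day 6, only 78 genes were called higher and 108 lower. Of 137 called genes named here, 17 kept their call in that fit, among them NKD1, LEF1, FZD5, DISP1, BOC, FGB and PAX1. Some of their log2 changes moved far: LEF1 from 2.27 to 5.96, BOC from 2.39 to 4.17 and FGB from 5.78 to 31. NKD1 (2.65 to 2.44), DISP1 (2.78 to 2.88) and FZD5 (-3.12 in both) stayed close, and PAX1 went from 4.57 to 6.01. The fitted log2 changes of the other markers were 2.75 for LGR5, 1.97 for AXIN2 and 9.04 for HMX3, against 3.30, 1.72 and 6.56 without the covariate, and they did not pass (adjusted p = 0.49, 0.096 and 0.64 by edgeR's quasi-likelihood test). What the pseudogene difference adds to these rises cannot be told from this fit.

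Foregut identity was checked first. The epithelial marker EPCAM measured 270, 283 and 262 CPM untreated and 274, 327 and 266 CPM after treatment, and did not pass the test (log2 change 0.09). FOXA2, a defining factor of endoderm, measured 37.2, 31.3 and 33.7 CPM untreated and 17.8, 27.4 and 11.5 CPM after treatment, a log2 fall of -0.94. Without the 12 other libraries in the fit its adjusted p was 0.068. Both groups thus held epithelial and endodermal transcripts, with FOXA2 lower after treatment in all 3 libraries. In bulk RNA a lower level can mean fewer cells of a type or less RNA per cell, and these cannot be told apart. Untreated replicate 1 stood apart in blood vessel genes: CDH5, a cadherin of endothelium, measured 1.41, 20.9 and 21.8 CPM in the untreated libraries and 14.2, 23.5 and 23.1 CPM in the treated ones. The summed level of the 24 endothelial and blood genes ranged from 99.6 to 577.8 CPM untreated and from 218 to 291.5 CPM treated. In the list 2 of 17 rose and 4 fell, and 3 of the 4 were haemoglobin genes, 2 of them near-identical copies and therefore uncertain. Without untreated replicate 3, the highest for haemoglobin, or without treated replicate 3 none of the list fell, and without treated replicate 1 only 1 did. Without untreated replicate 1 only 1 rose. The part of these cells in the results was not tested.

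The 4 genes chosen as markers of this response all rose, and the groups overlapped in none of them. Such separation was common: the treated libraries all lay above the untreated ones in 24.8% of the genes tested and below them in 24.6%. LGR5, an R-spondin receptor and Wnt target, measured 6.19, 3.57 and 2.77 CPM untreated and 35.4, 66.3 and 43.4 CPM treated. That was a log2 rise of 3.30 ± 0.27 (standard error, SE), or 9.84-fold, with an adjusted p of 4.9e-08 by edgeR's quasi-likelihood test. Without untreated replicate 1, the highest of that group, the log2 rise was 3.91. AXIN2, a scaffold of the complex that degrades β-catenin and the most general Wnt feedback gene, measured 17.1, 18.7 and 18.1 CPM untreated and 63.2, 56.6 and 56.5 CPM treated. The rise was 3.30-fold (log2 1.72 ± 0.10 SE). HMX3, a homeobox factor known from the inner ear and brain, measured 0.402, 0.17 and 0.691 CPM untreated and 39.9, 31.9 and 47.2 CPM treated. From near silence it rose 94.5-fold (log2 6.56 ± 0.35 SE). PAX1, a factor of the pharyngeal pouches, measured 15.6, 18 and 11.9 CPM untreated and 372, 330 and 384 CPM treated, a 23.7-fold rise (log2 4.57 ± 0.21 SE). These genes were picked with results of these data in view, and their size is a description.

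**Figure D1:**
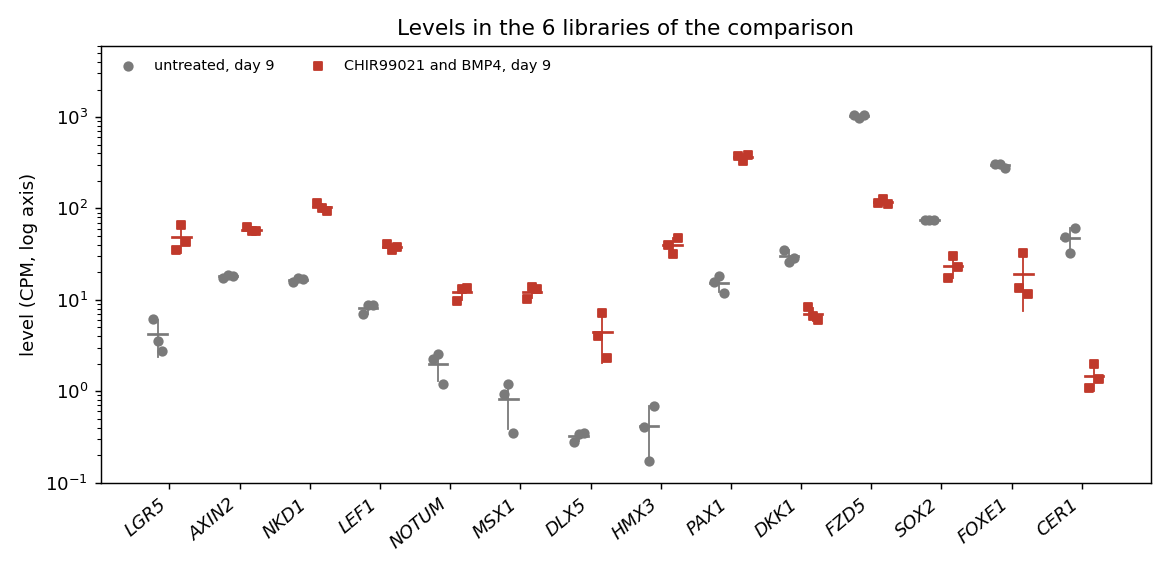
Level of 14 genes in CPM (log axis) in the 3 untreated (grey circles) and the 3 CHIR99021 and BMP4 (red squares) libraries of day 9, with bars at the mean and lines of 1 SD. LGR5, AXIN2, NKD1, LEF1, NOTUM, MSX1, DLX5, HMX3 and PAX1 lie higher in every treated library, and DKK1, FZD5, SOX2, FOXE1 and CER1 lower.

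Of 18 Wnt feedback and target genes tested, 10 rose and 3 fell, and their median log2 change was 0.672 against 0.00308 over all genes. With the pseudogene covariate 2 of them rose and none fell. NKD1, which restrains Dishevelled, measured 15.6, 17.4 and 16.9 CPM untreated and 114, 100 and 94 CPM treated (log2 2.65 ± 0.10 SE). LEF1, the factor that carries β-catenin to DNA, measured 6.91, 8.68 and 8.81 CPM against 40.4, 34.9 and 37.8 CPM (log2 2.27 ± 0.16 SE). The secreted inhibitor NOTUM, which strips the lipid from Wnt ligands, measured 2.25, 2.55 and 1.21 CPM against 9.7, 13 and 13.4 CPM (log2 2.52). APCDD1, a membrane inhibitor of Wnt and BMP signals, went from 61.6, 39.3 and 58.9 CPM to 251, 186 and 234 CPM (log2 2.05). In these 4 genes the lowest treated library lay above the highest untreated one, as in 24.8% of the genes tested.

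Smaller rises were measured for RNF43, a ligase that removes Frizzled receptors (log2 0.87), for the DKK receptor KREMEN1 (0.43) and for TCF7 (0.33). The TCF7 call did not hold when 1 of 4 libraries was left out: its adjusted p was 0.15 without untreated replicate 2, 0.079 without untreated replicate 3, 0.089 without treated replicate 1 and 0.095 without treated replicate 3. SP5, a zinc finger target of β-catenin, measured 1.17, 0 and 0.173 CPM untreated and 2.53, 3.33 and 2.23 CPM treated (log2 1.77). Its rise was 4.74 without untreated replicate 1, the only untreated library near 1 CPM, and its adjusted p was 0.055 without untreated replicate 3 and 0.059 without treated replicate 2. TNFRSF19 was higher in all 3 treated libraries but did not pass (log2 0.48, adjusted p = 0.067), and passed at 0.043 without untreated replicate 3.

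The genes of this list that fell were DKK1, MYC and NKD2. DKK1, a secreted antagonist that blocks LRP co-receptors and is itself a Wnt target, measured 35.4, 26.2 and 28.3 CPM untreated and 8.32, 6.65 and 6.06 CPM treated, a 4.39-fold fall (log2 -2.13 ± 0.27 SE). MYC, a transcription factor and Wnt target in gut epithelium, measured 25.8, 20.4 and 26.8 CPM against 8.83, 8.09 and 9.84 CPM (log2 -1.44). NKD2 fell by 0.87 on the log2 scale, a call lost without untreated replicate 1 (adjusted p = 0.11). ZNRF3, the partner of RNF43, had a log2 change of -0.05 and the cell cycle gene CCND1 one of -0.14, and neither passed. WIF1, with at most 0.414 CPM in these libraries, did not pass either.

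Promoter sequence is shown for the 3 members of this list whose deposited reference window held the core motif that LEF and TCF factors are known to bind. The windows are the 250 bases before a RefSeq transcript start on GRCh38.p14, and 9 of the 19 listed genes had at least 1. The search used CTTTG followed by AA, AT, TA or TT, on both strands. A match stood in 12% of all 35116 windows and in 3 of the 12 windows of the list. All 3 genes lie on the plus strand. SP5 is shown at chr2:170715087-170715336, DKK1 at chr10:52314031-52314280 and the downstream start of TCF7 at chr5:134123368-134123617. Capitals mark the matches.
SP5: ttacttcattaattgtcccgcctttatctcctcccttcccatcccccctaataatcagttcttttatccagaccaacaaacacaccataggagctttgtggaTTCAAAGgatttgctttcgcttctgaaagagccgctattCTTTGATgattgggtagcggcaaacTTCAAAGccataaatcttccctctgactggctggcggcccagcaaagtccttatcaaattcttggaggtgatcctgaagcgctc
DKK1: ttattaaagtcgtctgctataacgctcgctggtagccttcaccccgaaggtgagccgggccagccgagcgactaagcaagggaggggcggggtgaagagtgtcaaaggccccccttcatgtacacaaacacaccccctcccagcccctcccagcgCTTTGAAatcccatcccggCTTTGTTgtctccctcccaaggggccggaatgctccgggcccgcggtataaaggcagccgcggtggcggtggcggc
TCF7: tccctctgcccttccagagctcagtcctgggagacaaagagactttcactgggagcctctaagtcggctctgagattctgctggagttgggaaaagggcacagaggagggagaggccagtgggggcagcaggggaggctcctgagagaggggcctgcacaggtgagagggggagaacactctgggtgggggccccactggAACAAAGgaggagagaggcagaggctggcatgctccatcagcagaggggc
SP5 held 3 matches, 2 of them read on the minus strand, DKK1 held 2 on the plus strand and TCF7 held 1 on the minus strand. SP5 and TCF7 rose in the table and DKK1 fell, so within these windows a match went with either direction.

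Receptors for Wnt ligands changed in both directions: 5 of 17 rose and 7 fell, against 21% and 21.8% of all genes tested. With the pseudogene covariate none rose and 2 fell. FZD5, a Frizzled receptor of early foregut, measured 1056, 982.1 and 1041 CPM untreated and 115.6, 128.4 and 110.9 CPM treated. It was 8.69-fold lower (log2 -3.12 ± 0.10 SE), with no overlap, as on the lower side for 24.6% of the genes tested. FZD1 was 2.83-fold lower and FZD8 fell by 1.49 on the log2 scale. FZD7 went from 111, 77.5 and 54.1 CPM to 200, 185 and 182 CPM (log2 1.19), and FZD10 from 0.0804, 0.34 and 0.346 CPM to 1.45, 2 and 2.49 CPM (log2 3.47, or 2.51 without untreated replicate 1). The co-receptor ROR1 rose by 0.51, while ROR2 did not pass (0.09). The treated libraries thus held less FZD5, FZD1 and FZD8 transcript and more FZD7 and FZD10. On the deposited TPM values 8 receptors rose and 4 fell.

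Of the 9 Wnt ligand genes tested none rose and 4 fell, each by less than 2-fold. Without untreated replicate 1, 2 fell, without untreated replicate 2, 1 rose, and on the deposited TPM values 1 fell. WNT4 measured 9.88, 8.68 and 10.4 CPM untreated and 4.99, 4.77 and 7.36 CPM treated (log2 -0.73). WNT5A, a ligand of the non-canonical branch, did not pass (0.24, adjusted p = 0.47). WNT11 did not pass either (0.92). Among secreted modulators, the Wnt amplifier RSPO3 went from 127, 128 and 164 CPM to 42.7, 49.5 and 57.6 CPM (log2 -1.47). SFRP1 fell by 0.67 and SFRP2, which also binds Wnt ligands, rose by 1.99.

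Of 17 BMP target genes 7 rose and 2 fell, and the median log2 change was 0.334. With the pseudogene covariate none of them was called in either direction, and the fitted changes of MSX2, TBX2, ID2 and ID4 were negative. MSX1, a homeobox factor induced by BMP in many tissues, measured 0.924, 1.19 and 0.346 CPM untreated and 10.1, 13.7 and 13.1 CPM treated, 14.0-fold higher (log2 3.81 ± 0.30 SE). DLX5, a homeobox factor of placodes and skeleton, went from 0.281, 0.34 and 0.346 CPM to 3.98, 7.09 and 2.33 CPM (log2 3.76 ± 0.54 SE). MSX2 rose by 1.30, HEY1 by 2.06, and the T-box repressor TBX2 by 2.42, or by 3.58 without untreated replicate 1. In MSX1 and DLX5 no untreated library exceeded 1.191 CPM.

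The ID genes encode inhibitors of helix-loop-helix factors and are standard readouts of BMP signalling. ID2 measured 184, 164 and 162 CPM untreated and 306, 352 and 360 CPM treated (log2 0.99 ± 0.10 SE), and ID4 rose by 0.56. ID1 measured 221, 186 and 194 CPM against 208, 220 and 270 CPM and did not pass (log2 0.21, adjusted p = 0.41). ID3 measured 266, 228 and 252 CPM against 231, 257 and 293 CPM (log2 0.07, adjusted p = 0.72). Both groups overlapped in ID1 and ID3. The inhibitory SMAD6 (log2 -0.11) and SMAD7 (0.13) did not pass, SMAD9 fell by 0.36 and the pseudoreceptor BAMBI fell by 0.81.

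Genes for BMP ligands and antagonists moved in both directions: 5 of 12 ligands rose and 4 fell, and 5 of 15 antagonists rose and 3 fell. Over all genes 21% rose and 21.8% fell, close to the shares of the antagonists. The cells' own BMP4 transcript, which is separate from the protein added to the medium, measured 198, 166 and 207 CPM untreated and 64, 88.2 and 64 CPM treated (log2 -1.41 ± 0.14 SE). BMP5 went from 1, 2.38 and 0.518 CPM to 12.8, 16.2 and 13.8 CPM (log2 3.57). BMP3, an antagonistic family member, went from 2.61, 5.11 and 2.42 CPM to 0.145, 0.111 and 0.104 CPM (log2 -4.61). BMP7 rose by 0.72, BMP6 by 1.47 and BMP8A fell by 2.91. CER1, a secreted inhibitor of BMP, Nodal and Wnt ligands made by early endoderm, measured 48.3, 32.7 and 60.5 CPM untreated and 1.08, 2 and 1.35 CPM treated, 33.2-fold lower (log2 -5.05 ± 0.46 SE). Among other antagonists CHRD rose by 1.79 and CHRDL2 by 2.09, while FSTL1 fell by 0.70.

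In the Nodal and TGF-β list 2 of 14 rose and 7 fell. The antagonist LEFTY2 fell by 1.85. TGFB2 rose by 1.76, and NODAL did not pass (-0.20).

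**Figure D2:**
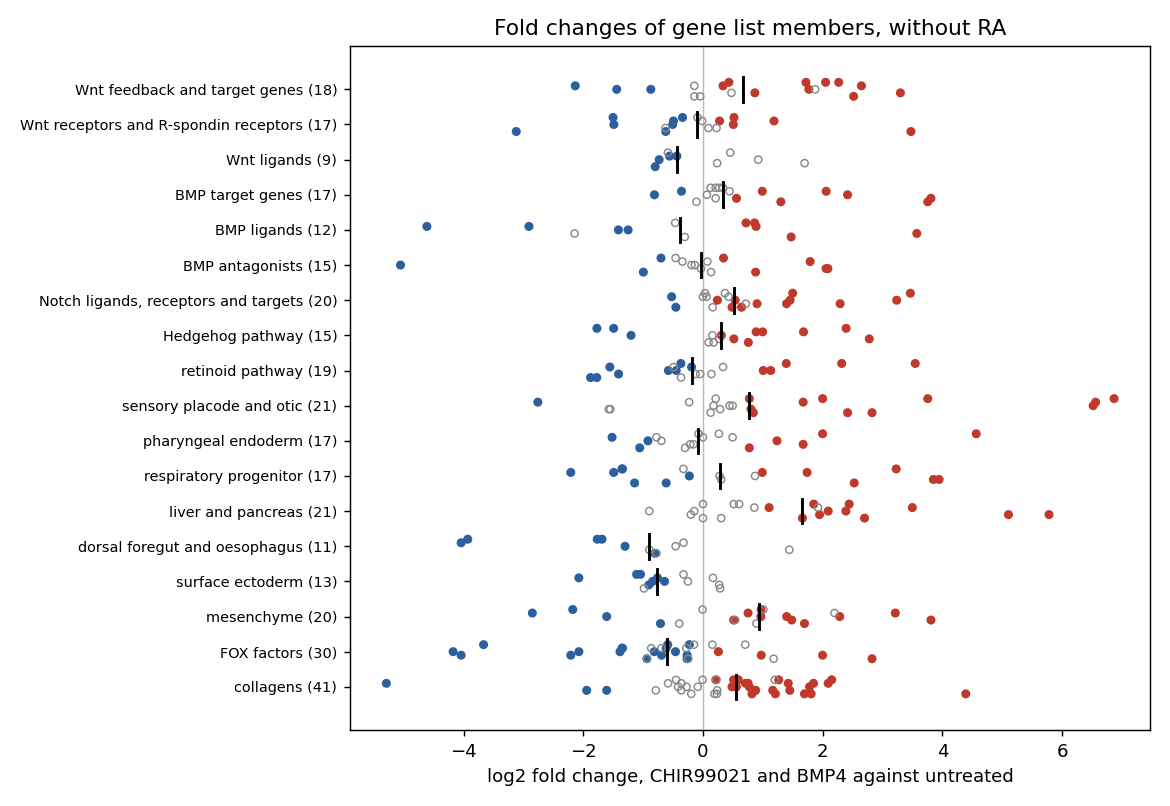
Log2 fold change without RA (x axis) of every tested member of 18 gene lists (rows, number tested in brackets). Filled red points rose and filled blue points fell at an adjusted p of 0.05, open points did not pass, and black bars are the list medians, which run from -0.897 for dorsal foregut and oesophagus to 1.66 for liver and pancreas.

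Of 20 Notch genes tested 11 rose and 2 fell. DLL1, a Notch ligand, measured 8.84, 6.98 and 5.7 CPM untreated and 113, 60.4 and 80.5 CPM treated, 11.1-fold higher (log2 3.47 ± 0.24 SE). The ligand JAG1 went from 79.2, 114 and 70.7 CPM to 467, 375 and 441 CPM (log2 2.29). Of the transcriptional targets of Notch, HEY2 measured 1.25, 2.89 and 2.77 CPM untreated and 15.1, 18.7 and 20.1 CPM treated (log2 3.24). HEYL rose by 1.40 and HES1 by 0.64 on the log2 scale, and HES4 was 2.83-fold higher. Without untreated replicate 1, and also with only the 6 libraries in the fit, 7 of the 20 rose.

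Hedgehog receptors and readouts moved apart: 8 of 15 rose and 3 fell. The positive co-receptors BOC (log2 2.39), CDON (0.76) and GAS1 (0.997) rose, as did DISP1, which releases the ligand, from 22.4, 23.8 and 19.5 CPM to 161, 139 and 153 CPM (log2 2.78). GLI2, the main activating factor, rose by 0.89, and the ligand gene IHH also rose. GLI1, whose transcript is the usual readout of pathway activity, measured 44.3, 47.7 and 47.5 CPM untreated and 13.2, 20.9 and 8.34 CPM treated (log2 -1.77 ± 0.26 SE). The receptor and target PTCH1 measured 425, 528 and 473 CPM against 201, 295 and 127 CPM (log2 -1.20), with an adjusted p of 0.053 when only the 6 libraries were fitted.

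SHH, the ligand of ventral foregut, measured 87.6, 55 and 59.1 CPM untreated and 44.2, 26.8 and 5.08 CPM treated, so the treated libraries spread widely. Its log2 change was -1.49 ± 0.51 SE, with an adjusted p of 0.03. The call was lost without untreated replicate 1 (adjusted p = 0.13), without treated replicate 2 (0.058) and when only the 6 libraries were fitted (0.24), and the change was -2.30 without treated replicate 1. Treated replicate 3 was also the lowest of its group for PTCH1, GLI1 and FOXA2. Whether these libraries differ in cell make-up was not tested.

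Genes of retinoid handling moved in both directions, with no RA added in either group: 5 of 19 rose and 8 fell. When untreated replicate 1 or treated replicate 1 was left out, 5 were lower. Among all genes tested 21% rose and 21.8% fell. CYP26C1, which degrades RA, measured 148, 105 and 112 CPM untreated and 540, 728 and 576 CPM treated, 4.99-fold higher (log2 2.32 ± 0.31 SE). CYP26A1, its better known relative, did not pass (log2 -0.05). The RA-synthesising ALDH1A1 went from 0.402, 0.34 and 0.691 CPM to 3.91, 7.65 and 4.77 CPM (log2 3.55), and the binding protein CRABP2 (1.39) and the retinol importer STRA6 (1.01) rose. RARB, a receptor gene that RA itself induces, measured 28.1, 37.3 and 34.6 CPM untreated and 8.76, 8.2 and 9.27 CPM treated (log2 -1.88). DHRS3, another RA-induced gene, fell by 1.56.

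Among FGF ligands and receptors 6 of 18 rose and 5 fell, with 3 lower without untreated replicate 1 or treated replicate 2. The shares over all genes tested were 21% higher and 21.8% lower. FGF18, a ligand of lung mesenchyme and skeleton, went from 12, 10.2 and 14.9 CPM to 1.23, 2 and 1.04 CPM (log2 -3.19). Only 8 of 39 HOX genes could be tested, and the summed level of all 39 stayed between 2.28 and 7.21 CPM in the 6 libraries. HOX transcripts were thus rare with or without CHIR99021 and BMP4.

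Genes of the pharynx and of sensory placodes were among the largest rises. In the placode and otic list 11 of 21 rose and 1 fell (2 without untreated replicate 3 or treated replicate 2), and the median log2 change was 0.775. HMX2, the neighbour and relative of HMX3 on chromosome 10, measured 0, 0.17 and 0 CPM untreated and 3.98, 4.1 and 5.54 CPM treated. With a single untreated count the ratio was 173 (95% interval from counting error 30.6 to 6850), and the fitted log2 rise of 6.87 was 5.55 without untreated replicate 1 and 8.67 without untreated replicate 2. RORB, a nuclear receptor of retina and cortex, went from 0.12, 0.34 and 0 CPM to 14, 15.7 and 11.6 CPM (log2 6.52 ± 0.41 SE). FOXI3, required for pharyngeal arches and placodes, measured 43, 33.4 and 33.2 CPM against 175, 109 and 163 CPM (log2 2.00). FOXI2 rose by 2.83 (3.60 without untreated replicate 1) and EYA2 by 0.80. OTX2 rose by 0.77 and OTX1 by 0.84. PAX2, a factor of the ear and kidney, went the other way, from 9.16, 9.36 and 8.64 CPM to 1.08, 2.33 and 0.933 CPM (log2 -2.76). The otic genes SOX10 and LMX1A, each under 1 CPM, did not pass, and FOXI1 and the otoconial gene OC90 had no reads in the 6 libraries.

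The pharyngeal list was mixed, with 5 of 17 higher and 3 lower, against 21% and 21.8% of all genes tested. Beside PAX1, FOXI3 and OTX2, the homeobox gene DMBX1 rose by 1.24. NKX2-6, a factor of pharyngeal endoderm, measured 42.4, 47.5 and 44.8 CPM untreated and 12.4, 15.6 and 18.4 CPM treated (log2 -1.52). PAX1 itself had a higher level at day 6 (mean 118 CPM) than in the untreated cultures of day 9 (15.2 CPM), and its treated level of day 9 (361.9 CPM) lay above both.

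Of 17 respiratory progenitor genes 6 rose and 7 fell, with 4 lower without untreated replicate 1 or without untreated replicate 3. NKX2-1, the first factor of lung and thyroid endoderm, measured 1.04, 1.53 and 0.864 CPM untreated and 8.97, 13.6 and 9.38 CPM treated, 9.38-fold higher (log2 3.23 ± 0.23 SE). The Iroquois factors IRX3 (log2 3.95), IRX5 (2.53) and IRX1 (1.74) rose. IRX3 measured 2.45, 1.02 and 0.346 CPM against 27.6, 26.5 and 29.1 CPM, a log2 rise of 5.32 without untreated replicate 1. The surfactant gene SFTPC had at most 1 count in any of the 6 libraries and SFTPB none. FOXP2, a factor of lung epithelium, fell by 2.21.

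No gene of the dorsal foregut and oesophagus list rose and 6 of 11 fell, with a median of -0.897. SOX2 measured 74.1, 75.6 and 74.5 CPM untreated and 17.5, 30 and 23.1 CPM treated, 3.22-fold lower (log2 -1.69 ± 0.35 SE). FOXE1, a factor of thyroid and oesophageal endoderm, measured 304, 305 and 278 CPM against 13.4, 32.4 and 11.5 CPM, 16.5-fold lower (log2 -4.04 ± 0.51 SE). KLF5 fell by 1.77 and the stomach factor BARX1 by 3.93. In the thyroid list DIO2, a deiodinase, rose with NKX2-1 (log2 3.51), FOXE1 fell, and PAX8 and TG were too low to test.

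**Figure D3:**
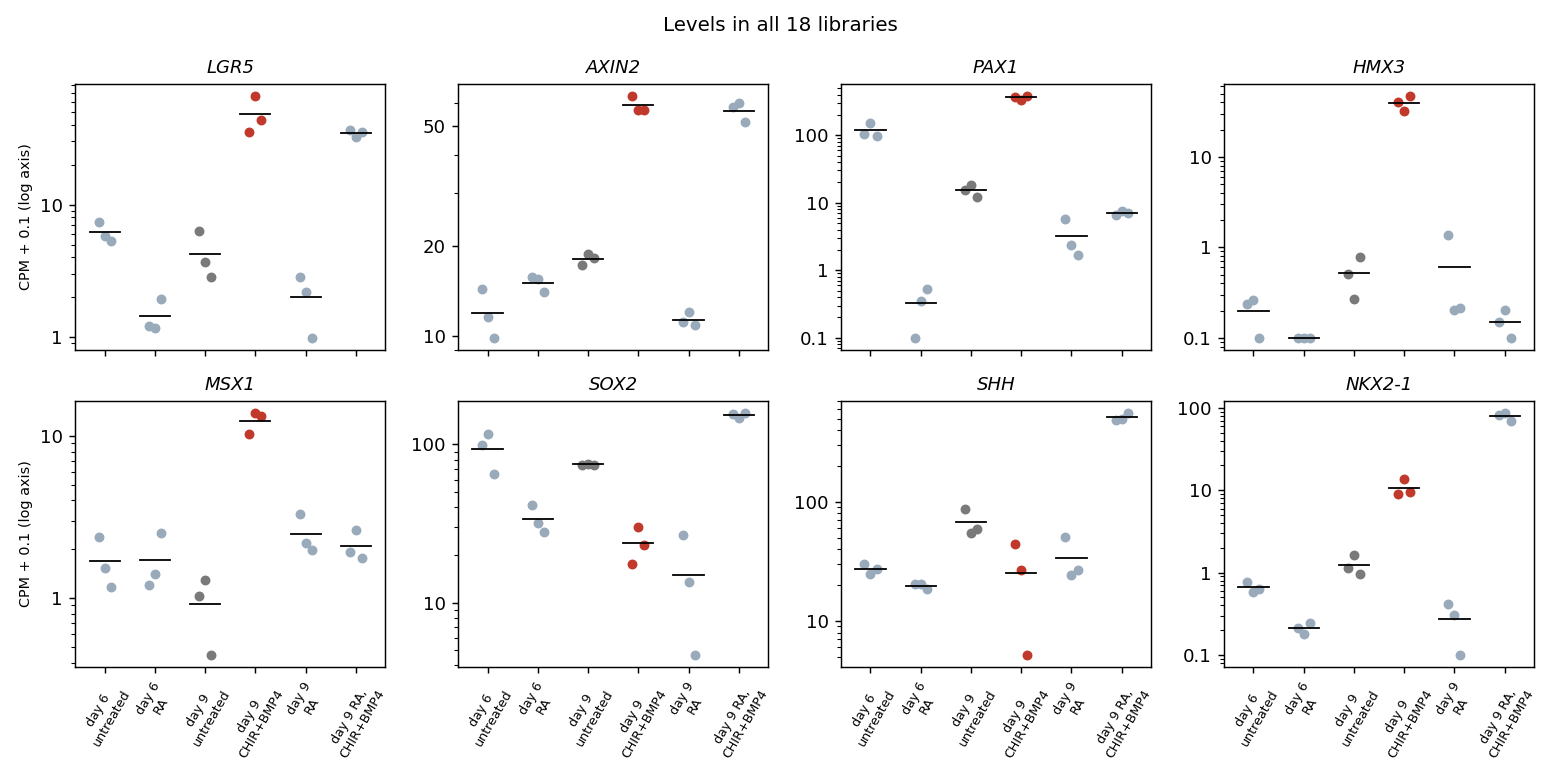
CPM plus 0.1 (log axes, scaled by gene) of 8 genes in the 3 libraries of each of the 6 groups, with black lines at the means and the 2 groups compared here in grey and red at positions 3 and 4. HMX3 and MSX1 are highest in the CHIR99021 and BMP4 libraries without RA, while SOX2, SHH and NKX2-1 are highest in those given CHIR99021 and BMP4 after RA.

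Of 21 liver and pancreas genes 11 rose and none fell, and the median log2 change was 1.66. The summed level of the list lay between 50.4 and 77.8 CPM in the untreated libraries and between 132.3 and 215.3 CPM in the treated ones. APOA1, an apolipoprotein of liver and gut, measured 9.88, 3.4 and 6.74 CPM untreated and 48.3, 44.6 and 34.3 CPM treated (log2 2.44, or 3.05 without untreated replicate 1). APOB rose by 2.39, HNF4A by 2.09 and APOA2 by 3.50 (2.66 without untreated replicate 1). AFP, a product of yolk sac and fetal liver, measured 0.0402, 0 and 2.07 CPM against 5.93, 25.4 and 10.4 CPM, and its log2 rise of 5.10 ranged from 3.66 without untreated replicate 1 to 8.24 without untreated replicate 3, with 4.43 without treated replicate 2. FGB, a fibrinogen chain, had 2 counts in the untreated libraries, and its ratio was 64.6 (95% interval from counting error 17.6 to 538). Its fitted log2 rise of 5.78 was 4.32 without untreated replicate 1 and 8.34 without untreated replicate 2. ALB was too low to test, and the pancreatic genes PDX1 and PTF1A had no reads in the 6 libraries.

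In the surface ectoderm list none of 13 rose and 7 fell. GRHL1, an epithelial barrier factor, measured 128, 117 and 136 CPM untreated and 25.5, 33.7 and 31.4 CPM treated (log2 -2.07), and TFAP2C fell by 1.11. Outside the list VGLL1, a TEAD partner, went from 10.1, 6.81 and 7.43 CPM to 0.362, 0.222 and 0.363 CPM (log2 -4.62). Of the 13 amnion and trophoblast genes tested 1 rose and 2 fell.

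Of 30 forkhead factors 17 were lower and 4 higher (FOXI2, FOXI3, FOXC1 and FOXJ2). FOXC2, a factor of mesenchyme and vessels, measured 30.3, 35.6 and 32.8 CPM untreated and 1.38, 2 and 2.02 CPM treated (log2 -4.17). FOXL1, expressed in gut mesenchyme, went from 11, 10.9 and 11.4 CPM to 0.579, 0.665 and 1.19 CPM (log2 -3.67). Other homeobox and leucine zipper factors that fell were HESX1, a repressor of the anterior head (27.5, 26.7 and 34.7 CPM against 2.1, 2.33 and 1.66 CPM, log2 -3.90), and MAF (log2 -2.57), while the MYC relative MYCL fell by 2.53. ALX4, a homeobox factor of craniofacial mesenchyme, had 2 counts in the untreated libraries and 5.21 to 6.58 CPM in the treated ones, a ratio of 104 (95% interval from counting error 28.5 to 864). Its fitted log2 rise of 6.44 was 8.82 without untreated replicate 1.

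Mesenchymal and contractile genes moved apart. Of 20 mesenchyme genes 10 rose and 4 fell, and the median log2 change was 0.93. VIM, an intermediate filament protein, measured 132, 185 and 147 CPM untreated and 343, 474 and 400 CPM treated (log2 1.40). The matrix gene POSTN went from 15.1, 10.2 and 9.5 CPM to 72.8, 73 and 38.8 CPM (log2 2.28), and the homeobox factor PRRX1 rose by 3.21 (2.52 without untreated replicate 1). CDH11, a cadherin of mesenchyme outside the list, rose by 1.23. Against these, the smooth muscle genes TAGLN (313, 190 and 286 CPM against 39.1, 36.5 and 34.4 CPM, log2 -2.85) and ACTA2 (log2 -2.18) fell, as did the skeletal actin ACTA1 (-4.12) and the cardiac troponin TNNT2 (-2.40). In the cardiac list 3 of 22 rose and 8 fell, and 1 rose without untreated replicate 1, treated replicate 2 or treated replicate 3.

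Of 41 collagen genes 23 rose and 3 fell, and the median log2 change was 0.552. COL11A1, a fibrillar collagen of cartilage, measured 152, 202 and 140 CPM untreated and 739, 659 and 701 CPM treated (log2 2.09). COL2A1, the cartilage collagen also made by notochord and epithelia, rose by 0.56, COL23A1 by 2.15 and COL24A1 by 4.39. COL8A1 fell 39.1-fold, from 26.4, 49.9 and 28.7 CPM to 0.724, 1.11 and 0.829 CPM (log2 -5.29 ± 0.38 SE). The vitronectin receptor subunit ITGAV measured 720, 822 and 629 CPM against 232, 244 and 214 CPM (log2 -1.65). CDH6, a cadherin of kidney and gut progenitors, fell by 1.53.

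Among guidance molecules 13 of 20 ephrin and Eph receptor genes rose and 2 fell (1 without untreated replicate 1), and 14 of 28 semaphorins and plexins rose and 2 fell. Of 18 slit, robo and netrin genes 5 rose and 4 fell (2 without untreated replicate 1), against 21% and 21.8% of all genes tested. SEMA3D measured 45.2, 44.1 and 52.2 CPM untreated and 300, 395 and 262 CPM treated (log2 2.76). EPHB6 rose by 1.29 and EFNB2 by 0.82, and the repellent SLIT2 of the last list rose by 1.62. The tight junction gene CLDN10 went from 14.8, 18.7 and 14 CPM to 191, 63.3 and 114 CPM (log2 2.98). LMO2, a partner of blood and endothelial factors, measured 12.1, 16.2 and 16.8 CPM against 93.2, 103 and 103 CPM (log2 2.80). CDH5, KDR and PECAM1, which mark the endothelium that also uses LMO2, did not pass (log2 0.80, 0.73 and 0.72).

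The largest changes outside these lists included neural and membrane genes. The serotonin receptor HTR4 measured 0.161, 0.17 and 0 CPM untreated and 11.8, 13.4 and 10.3 CPM treated (log2 6.32). CTNNA2, the α-catenin of neurons, went from 1.57, 2.21 and 2.94 CPM to 51.2, 60.2 and 61.5 CPM (log2 4.87), the phosphatase PTPRZ1 rose by 4.64 and the oxidase FMO1 by 5.80. The related adhesion genes TMEM132C and TMEM132D moved in opposite directions, by 5.398 and -4.09. CPNE4 fell by 4.35. In the neural list 4 of 15 rose (1 without treated replicate 3) and 3 fell (1 without untreated replicate 1), and the neuronal tubulin TUBB3 stayed at 2 to 4.9 CPM in the 6 libraries.

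In the integrated stress and unfolded protein list none of 17 rose and 13 fell, with a median of -0.718. ATF4, the central factor, measured 562, 438 and 419 CPM untreated and 306, 290 and 303 CPM treated (log2 -0.66), and ATF3 fell by 1.66. Without untreated replicate 1, the highest for ATF4 and ATF3, 8 of the 17 fell. In the cell cycle list 11 of 25 fell and 1 rose (7 fell among genes without a named pseudogene), and the median was -0.239. MKI67 measured 591, 548 and 584 CPM against 401, 370 and 376 CPM (log2 -0.59) and BUB1 fell by 0.81, while the inhibitor CDKN1A was 3.04-fold lower. On the deposited TPM values 4 of the 25 fell and 6 rose, so the direction of this list depends on the scaling, and 8 of the 17 stress genes fell. The share of counts from mitochondrial genes was 6.04 to 7.47% in the untreated libraries and 4.73 to 6.13% in the treated ones. Its part in these results was not tested.

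The same 2 agents given after RA were compared in 6 other libraries, and 10004 genes (64.4%) passed there, 32.1% higher and 32.3% lower. The 2 responses share no library, and 8300 genes (53.4%) passed a test of the difference between them. Of the genes up at least 2-fold without RA, pseudogenes left aside, 222 of 731 (30.4%) were also up at least 2-fold after RA, where they made up 15% of the 1479 such genes. For falls the count was 353, or 46% of 767 and 17.3% of 2040. Opposite changes of at least 2-fold were measured for 159 genes up without RA and down after it (21.8% of the 731). For 57 genes (7.43% of the 767) the changes went the other way. Over all genes tested, pseudogenes included, 10.2% were up and 13.5% down at least 2-fold after RA.

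The general Wnt feedback genes responded in both settings. After RA 12 of the 18 listed rose and 3 fell. NKD1 rose by 2.65 in both, LEF1 by 2.27 without and 2.25 after RA, and the test of the difference gave an adjusted p of 1 for NKD1 and 0.98 for LEF1. LGR5 rose by 4.24 after RA, with no difference passing the test (adjusted p = 0.11). AXIN2 reached a mean of 58.8 CPM without RA and 56.4 CPM after it, from 18 and 11.25 CPM, and its rise was larger after RA (log2 2.33, adjusted p of the difference 0.0018). ZNRF3, which did not pass without RA, rose by 2.22 after it, and the difference passed (adjusted p = 2e-12). APCDD1 rose by 2.05 without RA and fell by 1.88 after it, and NOTUM, up by 2.52 without RA, did not pass after it (-0.32), with a difference that passed (8e-06).

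In the BMP target list after RA 2 of 17 rose and 13 fell, and the median was -1.83. ID1 (-1.83), ID3 (-2.27), SMAD6 (-3.05) and SMAD7 (-2.08) fell there while none passed without RA, and each difference passed the test. MSX1 stayed near 2 CPM in both RA groups (means 2.4 and 1.99 CPM). Notch targets also differed: HEY2 and JAG1 fell by 2.55 and 3.53 after RA. HMX3 did not exceed a mean of 0.5 CPM in any other group of the series. PAX1 rose by 1.26 after RA, to a mean of 7.02 CPM, and the difference in its rise passed (5.5e-05).

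NKX2-1 rose by 8.84 after RA, to a mean of 79.2 CPM, against 10.7 CPM in treated cultures without RA. SOX2, which fell without RA, rose by 3.45 after it, to a mean of 153 CPM. SHH rose by 3.97 after RA, to 516 CPM, PTCH1 by 1.82 and GLI1 by 2.28, where all 3 had fallen without RA. FOXE1, down 16.5-fold without RA, did not pass after RA (0.83), where its mean was already 19 CPM. Of the 153 genes tracked through all alternatives, 61 passed in both comparisons in the same direction and 47 in opposite directions. Genes were named by the size of their change or with values known, so these counts describe the selection. Over all genes tested 42.8% passed without RA and 64.4% after it. For FOXE1 and AXIN2 the starting levels of the comparisons differed, so a difference in fold is not a difference in the level reached.

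**Figure D4:**
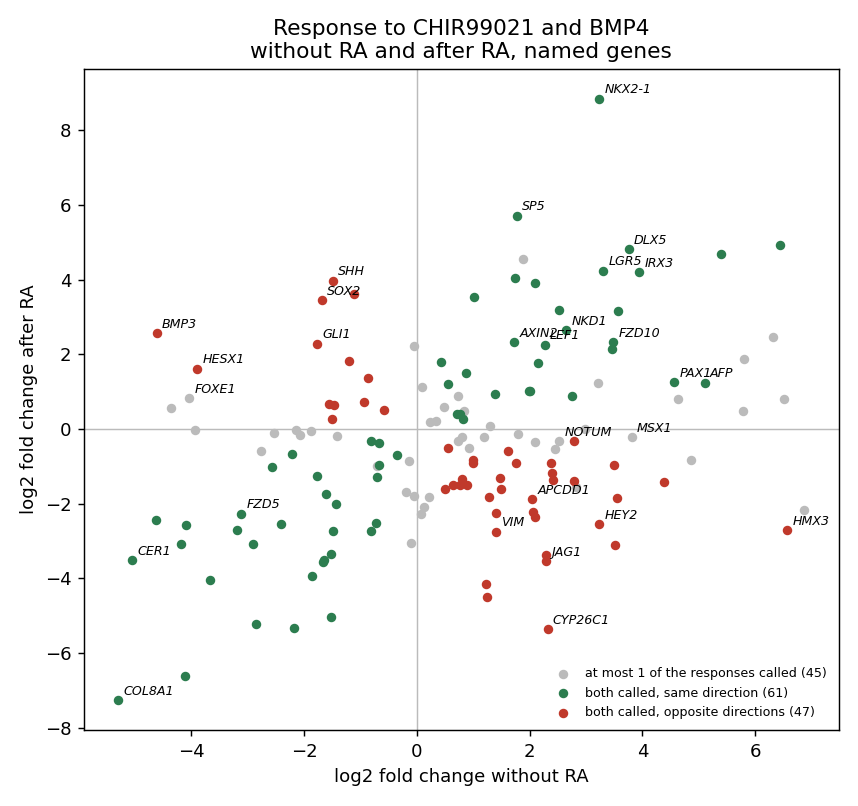
Log2 fold change of 153 named genes with CHIR99021 and BMP4 without RA (x axis) and after RA (y axis). Green points (61) passed in both in the same direction, red points (47) passed in opposite directions and grey points (45) passed in at most 1; NKD1 and LEF1 lie near equal values and HMX3, CYP26C1, SOX2 and SHH in the opposite quadrants.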

How the data were processed

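The libraries were polyadenylated-RNA libraries made with a stranded kit, per the labels' protocols. Reads were aligned to GRCh38 with STAR 2.7.9, per the submitters' processing notes, while no source used here names the counting tool or how it treated strand. The authors deposited raw read counts per gene, and these counts were tested as deposited. The authors also deposited TPM values (length-scaled transcript abundances), which equalled the counts scaled by a constant per gene and library (largest log2 residual 7.98e-10 over 7718 genes), so the TPM carry the same reads. They were tested only as an alternative with limma 3.58.1 on log2(TPM + 0.5).

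Of 35025 genes, 36 had no symbol (0.00102% of counts) and were left out, and 15531 passed filterByExpr with a minimum count of 10. Counts were tested with edgeR 4.0.16 in R 4.3.3: TMM normalisation, a robust quasi-likelihood fit with 1 mean per group over all 18 libraries, and Benjamini-Hochberg adjustment over all genes tested. The call rule was an adjusted p under 0.05. All adjusted p-values without another tool named come from this test. The response after RA and the difference between responses were contrasts of the same fit. The median biological coefficient of variation was 8.52%. CPM use TMM-scaled library sizes. Intervals on ratios with 1 to 3 counts are exact 95% intervals and cover counting error only. The procedure was tested on simulated data.

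The members and gene lists were chosen with earlier results of these data known, so list counts are descriptions without a set test. Named genes were the 15 largest rises and falls among called genes with at least 5 CPM and groups that did not overlap, the 12 largest of each among transcription factors, preset genes, and up to 6 called members per direction of each list described. Other list members are named for completeness, a choice made with their values known. Some genes picked by the rule are not described, mainly those whose call or size moved when 1 library was left out, and that choice too was made with the values known. Alternatives were other size factors, filters, DESeq2 1.42.0, the 6 libraries alone, a replicate block, a covariate for the pseudogene difference, and each library left out. Some list members are counted but not reported here by name. Promoter windows are RefSeq on GRCh38.p14.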

Additional observations from a re-analysis of the deposited data

Results flagged for a closer look

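For 28 named genes the response to CHIR99021 and BMP4 was called in opposite directions with and without RA, by at least 2-fold in each. The selection also required that the difference between the responses (after RA minus without RA, log2) passed edgeR's quasi-likelihood test. The differences and adjusted p-values below therefore describe the genes selected and are no separate support. The comparisons share no library. Only the comparison without RA spans the pseudogene difference between untreated and treated libraries, and its part in these differences was not tested.

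SHH, PTCH1 and GLI1 of the Hedgehog list were lower without RA and higher after it. SHH differed by 5.46 (adjusted p = 3e-05), PTCH1 by 3.02 and GLI1 by 4.05. The same directions were measured for SOX2, which differed by 5.13 (adjusted p = 3.1e-06), HESX1 by 5.51, TFAP2C by 4.73 and BMP3 by 7.17. SHH rested on few libraries without RA, where its call was lost without untreated replicate 1 or treated replicate 2. The Hedgehog co-receptor BOC went the other way and differed by -3.56.

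Notch genes were higher without RA and lower after it, with differences of -5.83 for JAG1, -5.79 for HEY2, -3.65 for HEYL and -3.11 for HES4. HEY1 differed by -4.29 and TBX2 by -3.77. Among Wnt and BMP modulators APCDD1 differed by -3.93 and BMP6 by -2.79. The retinoid genes CYP26C1 and ALDH1A1 differed by -7.67 (adjusted p = 0.0057) and -5.4.

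HMX3 differed by -9.27, but both RA groups had means of at most 0.5 CPM, so its fall after RA describes a gene near its floor. DMBX1 differed by -5.74 (adjusted p = 0.0019). Mesenchymal and matrix genes differed by -4.15 for VIM, -5.37 for CDH11, -5.65 for POSTN and -5.81 for COL24A1. LMO2 differed by -4.18, DIO2 by -6.63, HNF4A by -4.46 and EPHB6 by -3.11.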

How the results depend on the processing

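Of 153 named genes, all kept their direction and call with 2 other size factors, a filter of 1 CPM in 3 libraries, a replicate block and pseudogenes left out. Genes that moved when 1 library was left out had mostly been left undescribed, which favours this count. Without a filter SP5 lost its call, with DESeq2 TCF7 did, and with only the 6 libraries TCF7, SHH, PTCH1 and FOXA2 did while TNFRSF19 gained one. On TPM with limma NKD2, WNT4, SMAD9 and SIX3 lost their call and TNFRSF19, ROR2 and SMAD7 gained one; 6400 genes were called higher, 1634 lower and 484 lower at 2-fold or more. The replicate block gave 3317 higher and 3409 lower; same-numbered libraries had correlated deviations of 0.196, 0.0401 and 0.00272, so the numbers were not taken as pairs. Leaving out 1 library gave 2734 to 3168 genes higher, 2834 to 3271 lower, 790 to 960 higher at 2-fold or more and 855 to 975 lower. With the pseudogene covariate 78 genes were higher and 108 lower (78 and 107 at 2-fold or more), the difference of the responses was called for 1245 genes, and 14 named genes changed sign: SP5 -1.64, MSX2 -8.09, TBX2 -12.8, ID2 -0.132, ID4 -0.708, CHRDL2 -3.17, DMBX1 -0.828, HES4 -1.43, CRABP2 -0.161, DIO2 -3.05, HTR4 -0.289, TMEM132C -6.91, COL2A1 -0.195 and FOXP2 0.548 (log2). That slope rests on 2 libraries, and the cause was not tested. Depth limits genes under about 1 CPM, since the shallowest library held 5.79 M counts.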
